A study of Mus musculus with 2 samples.

Results

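The transcripts that carry N6-methyladenosine (m6A) were mapped in whole uterus of wild-type mice, 6 to 8 weeks old at mating and killed on day 4 of gestation, by sequencing the RNA pulled down with an antibody against m6A (IP). Females were mated with fertile males, and the day of the plug counts as day 1. There is 1 IP sample and 1 input sample, which saw no antibody, each from polyA RNA of a tissue with mixed cell types. The data are the 26584 peaks deposited with the IP sample on the mm10 build. Described here are the 1571 peaks on the autosomes and chromosome X that lie far from annotated genes, 5.92% (5.65 to 6.22) of the 26517 peaks on those chromosomes. They were chosen by position alone: the summit lies in no RefSeq gene span of any kind and more than 5 kb from every protein-coding span. With 1 sample of each kind there is no spread between animals and no p-value, and every difference below describes this 1 list. All peaks are named after a run called D8NegIP-Posinput, in disagreement with the labelled day 4, so whether the list belongs to the day 4 sample is unsettled. The name also joins an IP and an input that are marked differently, Neg and Pos, and which library served as the control is not given. Every background and fold enrichment below is therefore against a control whose sample is unknown. A peak summit lay in the span of 45.4% of all protein-coding genes. Of 8 genes that mark the uterus, among them Hoxa10, Hand2, Pgr and Esr1, 8 had one. Of 5 preimplantation embryo markers 2 did (Tfap2c and Eomes), which is near that share, of 4 ovary markers 0, and the oviduct marker Ovgp1 had one.

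m6A is placed on nascent RNA by a methyltransferase complex, prefers adenosines in a short consensus around GGACT, and is best known near stop codons and in long internal exons of mRNA. In the uterus the genes needed for embryo attachment and stromal differentiation are switched on around the days of implantation. An annotated gene span covers the known transcripts of a gene. RNA is also made outside such spans, from transcribed repeats, enhancers, unannotated long non-coding RNAs and transcripts that run past the annotated end of a gene. A peak in such a place has no gene name, and its fragments may also stem from similar sequence elsewhere.

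Of the 1571 peaks, 4 reached into the window from 250 bases before to 50 bases after the start of an annotated gene, as RefSeq gives it on GRCm38.p6, and these are the far peaks whose letters are at hand. All 4 genes are long non-coding RNAs. The 3 windows with the most bases inside the peak are shown 5′ to 3′ on the strand of the gene, with the bases covered by the peak in capitals.
2210408F21Rik, chr6:31220101-31220400, plus strand: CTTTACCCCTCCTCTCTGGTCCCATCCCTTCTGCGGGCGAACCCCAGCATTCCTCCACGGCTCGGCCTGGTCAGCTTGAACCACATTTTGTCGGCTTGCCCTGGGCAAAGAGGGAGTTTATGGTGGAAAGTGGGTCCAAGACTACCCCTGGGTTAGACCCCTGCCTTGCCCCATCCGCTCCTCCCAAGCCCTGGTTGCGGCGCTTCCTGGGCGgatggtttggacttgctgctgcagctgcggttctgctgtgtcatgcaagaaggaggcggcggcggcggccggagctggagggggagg
4930428G15Rik, chr9:115335911-115336210, plus strand: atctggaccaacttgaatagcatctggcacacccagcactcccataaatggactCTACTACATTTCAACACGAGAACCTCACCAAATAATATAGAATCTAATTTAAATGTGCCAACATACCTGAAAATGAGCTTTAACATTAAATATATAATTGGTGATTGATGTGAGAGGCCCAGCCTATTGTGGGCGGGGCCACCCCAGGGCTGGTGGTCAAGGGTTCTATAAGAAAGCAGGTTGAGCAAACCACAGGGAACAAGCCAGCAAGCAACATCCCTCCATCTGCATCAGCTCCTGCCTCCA
Gm11205, chr11:79704320-79704619, plus strand: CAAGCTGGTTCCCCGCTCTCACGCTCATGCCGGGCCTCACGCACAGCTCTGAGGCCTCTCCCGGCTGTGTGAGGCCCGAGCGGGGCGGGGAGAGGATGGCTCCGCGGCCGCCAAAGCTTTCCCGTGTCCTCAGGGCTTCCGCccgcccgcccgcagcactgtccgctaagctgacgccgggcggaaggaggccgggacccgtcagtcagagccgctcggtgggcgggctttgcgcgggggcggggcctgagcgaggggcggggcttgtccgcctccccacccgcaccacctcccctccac

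The 2210408F21Rik peak had a fold enrichment of 8.64 (5.37 to 13.2), with its summit 180 bp before the gene's start and 213 of the 300 window bases inside the peak. The 4930428G15Rik peak had 5.06 (2.31 to 10.2), with its summit 12 bp before the start and 246 bases covered. The Gm11205 peak had 7.61 (4.12 to 13.1), 236 bp before the start, in a window of 74% G and C. The other one, before Gm36445, had 6.79 (3.58 to 12.0), and 52 bases of the window were covered. These are modest peaks of 6 to 19 IP fragments, and none of them is among the strongest. GGACT, searched on both strands (as GGACT or AGTCC), was in 2 of the 4 windows, against 45.5% of all 32851 windows of this length in the table. In both of the windows with a match, those of 2210408F21Rik and 4930428G15Rik, it lay outside the bases covered by the peak but close to the peak's edge. Both peaks also reach beyond their windows, and those parts were not searched, so absence of the motif from the peaks is not shown.

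Far peaks had a lower median fold enrichment than the list as a whole. A fold enrichment here is the peak caller's own ratio of the IP pileup plus 1 to the background plus 1 at the summit. Its median over far peaks was 6.26 (5.96 to 6.50; quartiles 5.11 and 8.39, range 1.76 to 75.6). Over all peaks on the same chromosomes the median was 7.14 (7.09 to 7.20), and over the 22983 peaks with the summit in a protein-coding span it was 7.26 (7.22 to 7.35). The 590 peaks outside all spans but within 5 kb of a protein-coding span had 6.34 (6.13 to 6.71). A fold enrichment of at least 10 was reached by 250 far peaks, 15.9% (14.2 to 17.8), against 25.7% of all peaks and 26.9% of those in protein-coding spans. Among the 590 just outside genes the share was 16.3% (13.5 to 19.5). The lower median and the smaller share beyond 10 were thus not particular to far peaks. At least 20 was reached by 41 far peaks, 2.61% (1.93 to 3.52), a share whose interval holds the 2.48% of all peaks. The far peaks were therefore fewer in the middle of the range but not at its top. All intervals are at the 95% level and cover counting error only: binomial for medians, Wilson for shares, and exact Poisson for a single fold enrichment with its background taken as known. Without the 1 added to pileup and background, the median over far peaks was 26.0. The median of that ratio over all peaks is not given here. All peaks had a median pileup of 18 and a median background of 1.42, against 8 and 0.208 in far peaks. The lower median of far peaks is therefore stated only for the ratio with the added 1, and the order without it is not stated.

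**Figure D1:**
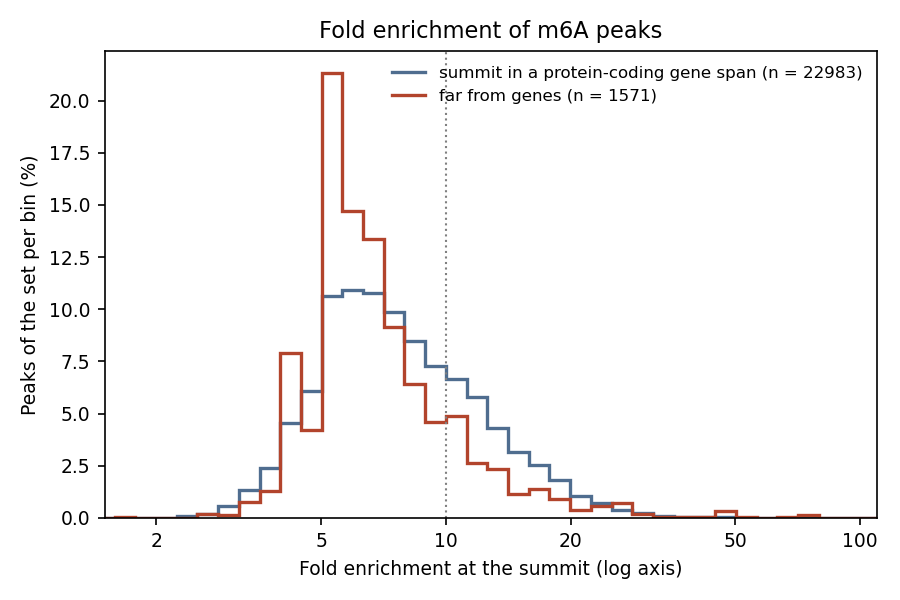
Share of peaks (vertical axis, percent of each set) by fold enrichment at the summit (horizontal log axis) for 1571 far peaks and 22983 peaks in protein-coding spans; the dotted line stands at 10. The far peaks have the lower median, 6.26 against 7.26, and a smaller share beyond 10 (15.9% against 26.9%), while their highest value is 75.6.

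The far peaks rested on few fragments. The count of IP fragments at each summit was solved from the fold enrichment and the p-value, and came out whole in every far peak. The median was 8 fragments (quartiles 6 and 12, range 3 to 192), against 18 over all peaks. Fewer than 10 fragments stood behind 987 far peaks, 62.8% (60.4 to 65.2), against 20.9% of all peaks, and 281 far peaks had exactly 5. At least 50 fragments stood behind 60 far peaks, 3.82% (2.98 to 4.89), against 10.7% of all. In significance, 1072 far peaks (68.2%, 65.9 to 70.5) had a −log10 q of at least 5, against 85.0% of all peaks. The far peaks were also narrow, with a median width of 232 bp against 322 bp, and 894 of them (56.9%, 54.4 to 59.3) were under 250 bp wide.

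The background under the far peaks was low. It is the number of fragments expected at the summit without enrichment, and its most frequent value in the whole list, also its lowest, was 0.175. That level held for 531 far peaks, 33.8% (31.5 to 36.2), against 4.99% of all peaks and 2.50% of peaks in protein-coding spans. A background of at least 1 was found under 257 far peaks, 16.4% (14.6 to 18.3), against 61.6% of all peaks. A value shared by 1323 peaks with none below it acts as a floor, so it need not measure RNA at the site. At this level the fold enrichment follows from the pileup alone. In whole tissue, RNA from few cells and little RNA in each cell cannot be told apart in a low background.

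At like background the order of the medians changed between far peaks and peaks in protein-coding spans. At backgrounds up to 0.18 the median fold enrichment was 5.96 in both. There the background is nearly constant, so these medians only restate the median of 6 fragments in both. Between 0.18 and 0.2 the median fold enrichment was 6.71 (5.87 to 6.71) against 5.87 (5.87 to 5.91). The background is nearly constant there too, so these medians only restate 7 against 6 fragments. Between 0.2 and 1 it was 6.32 (6.07 to 6.50) in far peaks and 7.22 (7.16 to 7.35) in protein-coding spans, and between 1 and 2 it was 6.62 (6.16 to 7.31) against 7.67 (7.49 to 7.69). Between 2 and 5 the medians were 7.62 (7.06 to 8.24) and 7.46 (7.36 to 7.59). Over 5, the 45 far peaks had a median of 7.99 (6.27 to 10.9), with 92 fragments and 879 bp, against 6.50 (6.27 to 6.71), 51 fragments and 494 bp in protein-coding spans. Far peaks thus had the lower median at backgrounds from 0.2 to 2. The part of depth in this difference was not tested.

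**Figure D2:**
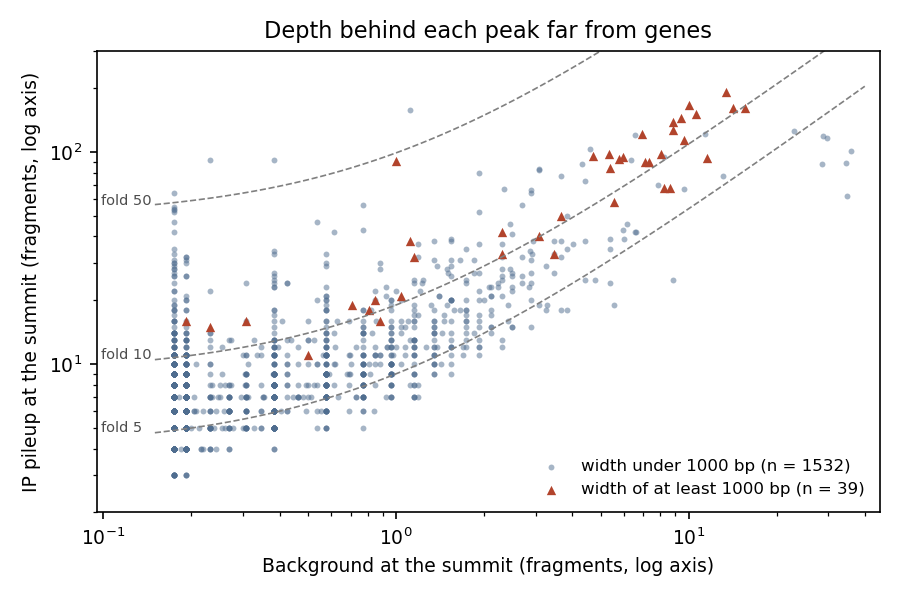
IP pileup against background at the summit (fragments, both axes log) for the 1571 far peaks; triangles are the 39 peaks at least 1000 bp wide, and dashed lines mark fold enrichments of 5, 10 and 50. The column of points at the left edge holds the 531 peaks at a background of 0.175, whose pileups reach 64, and most of the wide peaks lie at the upper right.

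Of the 10 far peaks with the highest fold enrichment, 9 stood alone and 6 had the lowest background. The highest fold enrichment, 75.6 (61.1 to 92.5), was at chr13:9834247-9834630, with 92 fragments over a background of 0.231. It lay 32611 bp from the long non-coding RNA gene Gm40665 and 41052 bp downstream of Chrm3, the gene of a muscarinic acetylcholine receptor. The peak at chr3:5860201-5860779 had 74.7 (63.5 to 87.3) from 157 fragments and the highest −log10 q of all far peaks, 266. Its background was 1.11, above the far-peak median of 0.208. It stood 109162 bp from the nearest span, the pseudogene Gm8797, and 281861 bp from Pex2, a gene of peroxisome assembly. The third, at chr6:49236459-49236754, had 67.2 (54.3 to 82.2) between 2 genes of RNA-binding proteins, 7331 bp downstream of the splicing factor gene Tra2a and 21121 bp from Igf2bp3, the gene of an m6A reader. The intervals of these 3 peaks overlap, so their order is not settled.

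The other 7 of the 10 highest ranged from 55.3 to 40.9. The peak at chr18:54699069-54699517, 188817 bp from the zinc finger gene Zfp608, had 55.3 (42.8 to 70.4). The peak at chr7:130834346-130834700, between Btbd16 and the membrane adaptor gene Plekha1, had 47.7 (36.1 to 61.8). Near Rimbp3 and the repressor gene Hic2, chr16:17222198-17222540 had 46.8 (35.4 to 60.8). These 3 had 64, 55 and 54 fragments over the lowest background, 0.175. The peak at chr11:88893792-88894795, 29421 bp downstream of the carboxypeptidase gene Scpep1, had 46.0 (37.1 to 56.4) over a background of 1, was 1004 bp wide, and was the only one of the 10 with another far peak beside it in a group. The peaks at chr14:78828604-78828956 (46.0), 547 bp from the pseudogene Gm19098, at chr1:167340165-167340611 (45.1), 6353 bp downstream of the calcium channel gene Tmco1, and at chr6:3200715-3201643 (40.9), 929 bp wide and 171345 bp from Samd9l, also stood at 0.175.

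Peaks over the lowest background made up a smaller share of the strong peaks inside genes. Of the 41 far peaks with a fold enrichment of at least 20, 19 (46.3%) had the lowest background and 5 a background of at least 1. Their median width was 356 bp, 35 of the 41 were alone, and 17 had no other peak of the list within 100 kb. Of the 579 peaks of at least 20 in protein-coding spans, 5 (0.864%) had the lowest background and 409 (70.6%) at least 1, at a median width of 935 bp. Another peak lay within 10 kb of 7 of the 41 far peaks (17.1%) and of 396 of the 579 (68.4%). Among all far peaks at the lowest background the median was 6 fragments and the fold enrichment 5.96.

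The wide far peaks were of another kind. At least 1000 bp were covered by 39 far peaks, 2.48% (1.82 to 3.38), against 9.50% of all peaks. They had a median fold enrichment of 11.7, 84 fragments and a background of 5.38, and 0 of them stood at the lowest background. In protein-coding spans, peaks of that width had 12.8, 49 fragments and 2.69. Another peak lay within 10 kb of 29 of the 39. The widest, chr4:108146333-108153257, covered 6925 bp between Scp2, the gene of a sterol carrier protein, and Echdc2, with 15.2 (13.0 to 17.7) from 166 fragments. It lay 7660 bp upstream of Scp2. The next, chr8:119890167-119895351, covered 5185 bp between Klhl36 and the deubiquitinase gene Usp10, with 13.4 (11.5 to 15.4) from 192 fragments, the highest pileup of any far peak. The third, chr15:76560581-76564718, had 10.8 (8.96 to 13.0) between the long non-coding RNA gene Gm35739 and Adck5. The fourth, chr11:6750053-6754172, lay 74322 bp downstream of Ramp3, the gene of an adrenomedullin receptor subunit, and had 13.1 (11.1 to 15.4). The fifth, chr4:15236879-15240640, lay 25512 bp from Tmem64 and had 10.7 (9.13 to 12.5). Beside these, chr11:60582206-60583793, 25066 bp downstream of Alkbh5, the gene of an m6A demethylase, had 14.0 (11.8 to 16.5) from 145 fragments and completed the 10 highest in significance.

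Most far peaks stood alone. Peaks were put in 1 group where neighbouring summits were at most 10 kb apart with no gene span between them. This gave 1254 groups, of which 1049 held a single peak (66.8% of far peaks) and 205 held 2 or more. With −log10 q of at least 5 the latter number was 119. Lone peaks had a median of 7 fragments, 218 bp and a fold enrichment of 5.96 (5.96 to 6.40), and 43.9% of them had the lowest background. The 136 peaks in groups of 4 or more had 14 fragments, 345 bp and 6.71 (6.32 to 7.65). Of these, 5.88% had the lowest background and 51.5% at least 1. Over all peaks of the list, 65.6% had another peak within 10 kb, against 39.2% (36.8 to 41.6) of far peaks, and 33.4% of far peaks had none within 100 kb, against 7.01%.

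There were 6 groups with 6 or more peaks, and they covered from 4862 to 15804 bp. The group of 8, chr13:12754543-12770346, lay downstream of Prl2c3, a gene of the proliferin family of prolactin-like hormones, at fold enrichments from 4.08 to 7.03 and backgrounds from 2.0 to 3.65. The group of 7, chr7:7071818-7077378, lay within 5561 bp between 2 pseudogenes, Pafah1b1-ps2 and Gm6828, with the zinc finger gene Zfp954 as the nearest protein-coding gene, 37503 bp away. Along it the fold enrichments were 6.91, 17.3 (13.4 to 21.9), 9.15, 13.0, 8.23, 27.7 (22 to 34.4) and 2.64. The interval of the sixth, the highest of the run, thus lay above those of the fifth and the seventh. These intervals take the background as known and leave out its counting error. The background of the seventh was 8.84, the highest of the group, and its pileup 25.

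The group of 6 at chr8:43312360-43317964 lay 6001 bp and more upstream of Zfp42, a marker gene of pluripotent cells that had no peak in its own span. Its fold enrichments were 6.32, 9.15, 11.6, 11.2, 18.5 (15.2 to 22.4) and 10.4, with up to 103 fragments. Another 6 filled chr14:54531540-54536401, downstream of Haus4, the gene of a spindle microtubule protein, with 15.4 (11 to 20.9) as the highest value and 4.25 as the lowest. A further 6 at chr10:41438587-41444804, between the adenylate kinase gene Ak9 and the DNA-binding factor gene Zbtb24, had 4.82 to 12.0, with 122 fragments in the deepest. The last, chr1:101880519-101895000, was 1389985 bp from the nearest protein-coding gene, Cntnap5b, a neuronal adhesion gene. It had fold enrichments from 5.09 to 10 over backgrounds under 1. Within these groups neighbouring peaks may come from 1 RNA, so they are not independent sites.

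**Figure D3:**
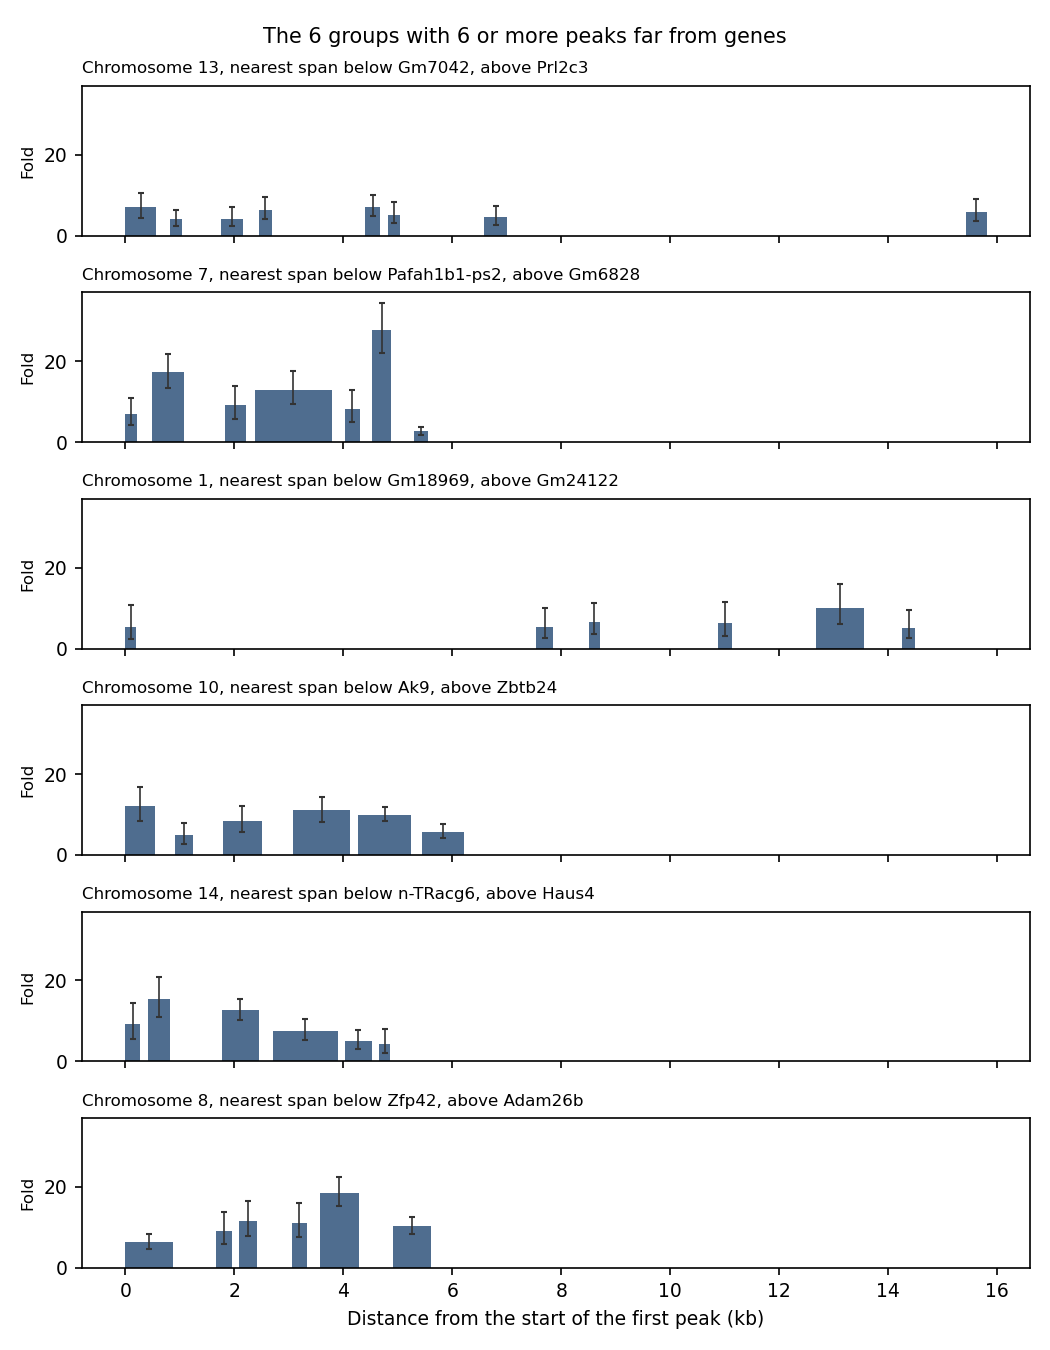
The 6 groups with 6 or more far peaks; each bar is 1 peak, placed by its distance from the start of the first peak (kb), as wide as the peak and as high as its fold enrichment, with its 95% Poisson interval. The group on chromosome 7 holds the highest value, 27.7, and the group on chromosome 13 stays between 4.08 and 7.03.

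Far peaks were denser near genes, more steeply so where they had a background of at least 1. Outside all spans and more than 5 kb from protein-coding ones there were 1238 Mb between the first and the last gene of each chromosome, with 1.27 far peaks per Mb. The density was 2.81 per Mb (2.47 to 3.18) from 5 to 10 kb, 1.46 (1.29 to 1.64) from 20 to 50 kb, and 0.773 (0.661 to 0.898) beyond 500 kb. Peaks with a background of at least 1 went from 0.836 per Mb (0.658 to 1.05) at 5 to 10 kb to 0.0411 (0.0188 to 0.0781) beyond 500 kb. Peaks at the lowest background had 0.580 per Mb (0.433 to 0.760) and 0.389 (0.310 to 0.481) at the same distances, and between 0.337 and 0.580 at every distance. Their share accordingly was 20.6% of far peaks at 5 to 10 kb and 50.3% beyond 500 kb. The median fold enrichment was between 5.96 and 6.42 at every distance, and its intervals overlapped. Gaps of unknown sequence were not subtracted from the Mb, and densities given below for genes and chromosomes were not matched for distance.

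**Figure D4:**
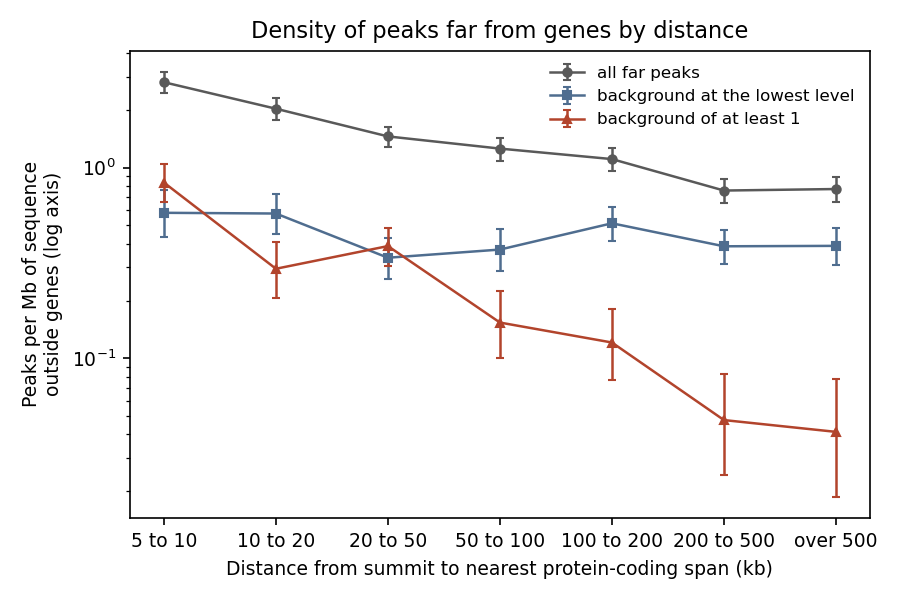
Far peaks per Mb of sequence outside genes (log axis) by distance of the summit from the nearest protein-coding span, for all far peaks, those at the lowest background and those with a background of at least 1; bars are 95% Poisson intervals. The last of these goes from 0.836 to 0.0411, while peaks at the lowest background stay between 0.337 and 0.580.

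The 5 far peaks deepest between genes were picked among those with −log10 q of at least 5. They had fold enrichments from 5.82 to 8.51 and 6 to 16 fragments. The median fold enrichment over all far peaks at that threshold was 7.25 (7.07 to 7.55). The farthest from any gene span with −log10 q of at least 5, chr3:22963872-22964101, stood 437723 bp from the nearest pseudogene and had 8.51 (4.35 to 15.4) from 9 fragments. The others were at chr10:55580272-55580570 (5.82, 3.47 to 9.23), 433890 bp from the cilium gene Tbc1d32, chr2:99164823-99165025 (5.96, 2.73 to 12.0), chr4:29585046-29585282 (6.81, 3.25 to 13.1) and chr16:69411655-69411855 (5.87, 2.69 to 11.8). Each of these 4 lay between 384433 and 433890 bp from the nearest span. Of the 5, 3 had the lowest background and 1 had 1.92. The median distance of a far peak was 14256 bp from a gene span of any kind and 49887 bp from a protein-coding one. The nearest span was protein-coding for 498 (31.7%), a pseudogene for 526 (33.5%) and a long non-coding RNA gene for 428 (27.2%), and it was within 1 kb for 87 (5.54%). At the 5 kb limit the 5 peaks just inside, 5002 to 5067 bp away, had fold enrichments from 4.44 to 7.13, and the 5 just outside, 4960 to 4993 bp away, from 3.96 to 9.69.

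The side of the nearest protein-coding gene could be read for 1259 far peaks (80.1%), whose gene has its strand in the RefSeq promoter table. Of these, 635 (50.4%, 47.7 to 53.2) lay downstream of the gene's end. Of the peaks outside all spans but within 5 kb of such a gene, at any background, 227 of 471 did (48.2%, 43.7 to 52.7). Among the 213 far peaks with a background of at least 1, 128 did (60.1%, 53.4 to 66.4), against 507 of 1046 with less (48.5%, 45.5 to 51.5). Counted once for each group, 75 of 131 did (57.3%, 48.7 to 65.4) against 435 of 895 (48.6%, 45.3 to 51.9), and these intervals overlap. By distance, the share downstream among peaks with a background of at least 1 was 61.5% (40 of 65) at 5 to 10 kb, 64.3% (18 of 28) at 10 to 20 kb and 72.1% (44 of 61) at 20 to 50 kb. It was 50% (11 of 22) at 50 to 100 kb and 33.3% (7 of 21) at 100 to 200 kb, and farther out 4 of 8 in each of the remaining bands. The highest of these shares, at 20 to 50 kb, was 17 of 29 (58.6%, 40.7 to 74.5) when counted once for each group. The peaks themselves carry no strand. The median fold enrichment was 6.12 (5.96 to 6.50) downstream and 6.44 (6.04 to 6.71) upstream.

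In all, 1030 protein-coding genes were the nearest one to at least 1 far peak, 4.76% of the 21631 on these chromosomes, and 704 of them to exactly 1. Nearness does not assign a peak to a gene. Of the 1030, 530 had a peak in their own span (51.5%, 48.4 to 54.5), against 45.4% of all protein-coding genes. In the sequence nearest to genes with a peak in their span there were 1.47 far peaks per Mb (1.37 to 1.57), and in that nearest to genes without one 1.09 (1.01 to 1.17). Counted once for each group, these were 1.13 (1.05 to 1.22) and 0.911 (0.839 to 0.987).

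Among 40 regulators of hormone response and implantation, 5 were the nearest gene to a far peak (12.5%, 5.46 to 26.1), against 4.76% of all protein-coding genes. The listed genes border 136 kb of sequence far from genes per gene, against 57.3 kb over all genes. They had 11 far peaks, 2.02 per Mb (1.01 to 3.62), an interval that holds the 1.27 over all genes. Counted once for each group the density was 1.29 (0.517 to 2.65), against 1.01 over all genes. With −log10 q of at least 5 they had 1.10 per Mb, against 0.866 over all genes. The progesterone receptor gene Pgr had 6 of the 11, all upstream of its start. The 4 in the more distant group, 47612 to 53702 bp away, had 8.24 (4.57 to 13.9), 6.78 (3.67 to 11.7), 5.07 (2.42 to 9.78) and 4.52 (2.16 to 8.72) in the order of approach to the gene. The 2 nearer ones had 5.10 (2.61 to 9.22) at 21064 bp and 10.5 (6.24 to 16.6) at 13554 bp, the latter 717 bp wide with 16 fragments. Their intervals overlap, and backgrounds lay between 0.577 and 0.961, so all 6 stood over some background but none over 1.

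The other hormone and implantation genes had isolated peaks over the lowest background. In the sequence beside Nr2f2, which encodes COUP-TFII, a regulator in uterine stroma, chr7:69724608-69725073 had 26.4 (18.1 to 37.3) from 30 fragments, 627185 bp downstream of the gene. Hand2, a progesterone-induced stromal transcription factor, had 10.2 (5.53 to 17.6) 296658 bp upstream. The progesterone-responsive Klf9 had 5.11 (2.23 to 10.8) and 7.66 (3.79 to 14.3) at 23855 and 10416 bp upstream. The Wnt ligand gene Wnt5a had 4.26 (1.78 to 9.57) from 4 fragments, 80648 bp away. All 5 genes also had peaks in their own spans. The other 35 genes of the list, Esr1, Lif, Bmp2 and Foxa2 among them, were not the nearest gene to any far peak.

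Developmental transcription factor genes, many of which border long stretches without genes, were the nearest gene in 12 of 45 cases (26.7%, 16.0 to 41.0). Over all protein-coding genes the share was 4.76%. The listed genes border 339 kb of such sequence per gene against 57.3 kb over all genes. Per Mb they had 0.982 far peaks (0.550 to 1.62), an interval that holds the 1.27 over all genes. Density fell with distance from genes and was not compared at like distances. The strongest was 13.4 (7.88 to 21.6) near Tbx18, a gene of smooth muscle and stromal precursors. Meis1, the gene of a Hox cofactor, had 3 far peaks of up to 10.2 (5.53 to 17.6). Foxl2, the gene of a forkhead factor of ovary and uterus, had 9.84 (6.60 to 14.2) from 27 fragments over 1.85, at chr9:98947430-98947681, 1612 bp from the antisense gene Foxl2os. Irx5, Tbx3, Nr2f1, Tshz1, Emx2, Osr1, Satb1 and Gata6 had single far peaks from 9.36 down to 4.14.

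Numbered zinc finger genes had more far peaks per Mb than protein-coding genes as a whole. They border 33.0 kb of sequence far from genes per gene, against 57.3 kb over all genes. Densities at like distances were not compared. Of 367, 22 were the nearest gene (5.99%, 3.99 to 8.91), against 4.76% of all protein-coding genes. They had 46 far peaks or 3.80 per Mb (2.78 to 5.07), against 1.27 (1.21 to 1.33) over all genes. A fold enrichment of at least 10 was reached by 11 of the 46, and by 15.9% of all far peaks. Counted once for each group the density was 1.98 (1.27 to 2.95) against 1.01 (0.957 to 1.07), and with −log10 q of at least 5 it was 2.73 against 0.866. The runs near Zfp954, with 7 peaks, and Zfp42, with 6, were the largest. Without these 2 genes the list had 33 far peaks, 2.77 per Mb (1.91 to 3.89), and 1.85 groups per Mb (1.16 to 2.80). Peaks with a background of at least 1 numbered 19, or 1.57 per Mb (0.946 to 2.45), against 0.208 (0.183 to 0.235) over all genes. Of the 19, 13 belong to these 2 runs, and without them the density was 0.504 (0.185 to 1.10). Counted once for each group it was 0.413 (0.134 to 0.965) from 5 groups with them, against 0.134 (0.114 to 0.156) over all genes. Without them it was 0.252 (0.0520 to 0.736) from 3 groups, an interval that holds 0.134. Zfp236 had 3 far peaks of up to 15.6 (12.7 to 19.0) from 98 fragments, and Zfp956 had 1 of 23.8 (16.0 to 34.3) 9099 bp downstream. Many zinc finger genes, though not all on this list, lie in tandem arrays of similar copies, and there fragments of one copy may be placed at another.

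Olfactory and vomeronasal receptor genes, which are active in sensory neurons, were the nearest gene in 32 of 1465 cases (2.18%, 1.55 to 3.07), against 4.76% of all protein-coding genes. Their sequence, 23.7 kb per gene against 57.3 kb over all genes, held 42 far peaks. These made 1.21 per Mb (0.872 to 1.63), against 1.27 over all genes, with distances not matched. Of the 42, 4 had a fold enrichment of at least 10, against 15.9% of all far peaks. The highest was 14.3 (8.51 to 22.6) near Olfr1373, and the median was 6.71. None of these 32 genes had a peak in its own span, against 51.5% of all genes nearest to a far peak that had one. Of 101 genes named as ribosomal proteins, 3 were nearest to a far peak (2.97%, 1.02 to 8.37, against 4.76%), with 1 peak each, or 0.675 per Mb (0.139 to 1.97) against 1.27. Rps24 and Rpl10l had 6.71 (3.20 to 12.9), and Rps6ka3, a kinase gene that the symbol rule took in, had 9.39 (5.20 to 15.9).

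Far peaks made up 16.2% (13.7 to 19.1) of the 720 peaks on chromosome X, the highest share of any chromosome, against 3.16% (2.47 to 4.04) on chromosome 11. Chromosome X has 109.7 Mb of sequence far from genes, and per Mb it had 1.07 far peaks (0.882 to 1.28), against 1.27 over all. The density was highest on chromosome 9, 1.82 (1.46 to 2.24), and lowest on chromosome 18, 0.710 (0.483 to 1.01). On chromosome 13, 30.4% of far peaks had a background of at least 1, and on chromosome 19, 0 of 28.

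At the other end of the scale, 7 of the 1571 far peaks had a background over 20, a set picked out only after the values had been looked at. Over all 26517 peaks on these chromosomes 32 had such a background, 15 of them in protein-coding spans. Of the 7 far peaks, 3 lay at chr17:39842997-39846078, next to Rn18s-rs5, a sequence related to ribosomal RNA. Their fold enrichments were 5.32 (4.44 to 6.33), 2.53 (2.04 to 3.10) and 2.76 (2.25 to 3.35). The other 4 lay at chr1:24612335-24616153, a stretch known as a nuclear copy of mitochondrial DNA, around the pseudogenes Gm10222 and Gm10925. They had 1.76 (1.36 to 2.25), the lowest of all far peaks, 3.0 (2.41 to 3.69), 3.83 (3.17 to 4.59) and 4.02 (3.34 to 4.81). Fragments of abundant RNA with near-identical sequence elsewhere can be placed in both stretches, so the origin of these 7 is uncertain.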

How the data were processed

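RNA of 1 IP and 1 input sample was sequenced. The submitters' processing notes name HISAT2 2.2.1, MACS3 3.0.0a7 and mm10. Their options, the control library and any pooling are not given here. The deposited peak list holds the fold enrichment as a ratio, −log10 p-value and q-value, and a score of 10 times −log10 q. These deposited values were used as given. No input file was used.

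Gene spans came from a RefSeq table of 49997 genes on GRCm38.p6, the assembly of mm10, and strand and promoter letters from RefSeq tables of that build, which hold strand for 17492 of 21900 protein-coding genes. The letters of the other peaks were not analysed here. Pileup and background were solved from fold enrichment and p-value. The pileup was whole, within 0.05 of a step, for 99.97% of peaks, and the solver returned 100% of 2000 simulated pileups made with the same formula. Summits were compared with spans, counting from 1. Intervals at the 95% level (Wilson, binomial for medians, exact Poisson) cover only counting error, and PCR copies may be among the fragments counted. Wilson and binomial intervals treat peaks as independent.

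Named peaks are the 10 highest by fold enrichment (with −log10 q of at least 5), the 10 highest by −log10 q, the 5 farthest from any span, the 5 widest and the 5 largest groups, which ties made 6, with list genes nearest to a far peak, of which 1 is not reported here. Members and lists were chosen with earlier results of these data known. The alternatives tried were 2 stricter lists (−log10 q from 5, or fold enrichment from 4), limits of 2 or 10 kb, 5 kb from every span, the whole peak outside spans, 10 fragments, no pseudocount, any biotype as nearest gene, and gaps of 5 or 20 kb. Scripts ran in Python 3.11.15 with scipy 1.17.1, pandas 2.3.3, numpy 2.4.6 and matplotlib 3.10.9.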

Additional observations from a re-analysis of the deposited data

How the results depend on the processing

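The number of far peaks was between 1072 and 1813 under its 6 alternatives, within 1.5 times of 1571, and the number of nearest genes between 758 and 1204. The median fold enrichment of 6.26 stayed between 6.22 and 6.30 under the other distances. It was 7.25 with −log10 q of at least 5, 9.29 with at least 10 fragments and 26.0 without the pseudocount, both of the first 2 leaving out the smallest peaks. The share with a fold enrichment of at least 10 was 23.3% with −log10 q of at least 5. Groups of 2 or more numbered 119 with that threshold and 192 to 217 with other gaps. The median over the named peaks was 15.2, and 51.5 without the pseudocount, and 14 of the 21 named one by one then left their interval. The share at the lowest background, with alternatives chosen after the data were seen, was 28.8% with −log10 q of at least 5, 30.8% beyond 2 kb, 36.3% beyond 10 kb and 36.4% beyond 5 kb from every span. Leaving out Zfp954 and Zfp42, also chosen after the data were seen, took the density near zinc finger genes from 3.80 to 2.77 per Mb. No paired analysis was possible because only 1 peak list, with no second replicate, was analysed. Under 10 fragments, counting error alone allows several-fold different enrichments.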

Other observations

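Apart from the genes named above, 7 protein-coding genes were nearest to 6 or more far peaks. Igfbp7, the gene of a secreted insulin-like growth factor binding protein, had 6 between 221645 and 737415 bp away, all over backgrounds of 0.192 or less, with fold enrichments from 5.11 to 7.66. Lrrc4c, a neuronal adhesion gene beside a long stretch without protein-coding genes, had 6 from 5.03 to 26.8, also over backgrounds of 0.192 or less. Gdi2, a regulator of Rab proteins, had 7 from 5.06 to 9.31, over backgrounds from 0.384 to 1.35. Mrpl15, a mitochondrial ribosomal protein gene, had 6 from 4.44 to 12.1, and Rgs1, a regulator of G protein signalling in lymphocytes, had 6 from 4.26 to 6.90. The predicted genes Gm14434, with 7, and Gm14410, with 6, lie on chromosome 2 and reached 15.3 and 16.6. Cntnap5b had the most of any gene, 11, from 817822 to 2137711 bp away, and Prl2c3 had 10.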
